A study of Mus musculus with 12 samples.

Results

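Oncofetal liver genes are active in the fetal liver, fall silent or nearly so after birth and can be switched on again in regenerating liver or in hepatocellular carcinoma. A set of 10 genes of this kind or partners of them was chosen by name, with earlier results of the same arrays known: Afp, Gpc3, H19, Igf2, Igf2r, Igf2bp1, Igf2bp2, Igf2bp3, Dlk1 and Lin28b. The probe set of each was selected on a measured value, the highest mean over the 12 arrays, among the probe sets that the platform annotation pairs with that symbol alone. This gave 8 of the 10 genes, among 19938 genes in all. H19 and Igf2bp2 had 0 such probe sets and were not analysed here.

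The livers came from fed C57Bl/6J mice aged 10 weeks, sampled 7 days after intravenous injection of an adenovirus. In the sh Grb14 group (6 mice) the virus carried a short hairpin RNA against Grb14, an adaptor protein that binds the insulin receptor and restrains its signal. In the sh scramble group (6 mice) it carried a scrambled hairpin, so that all 12 livers had received adenovirus and none was from an uninjected mouse. Each mouse gave 1 Affymetrix whole-transcript array, and the mice are numbered 1 to 6 within each group as names only. The p-values for the groups set their difference against the spread between these mice. The labels name no batch, so a batch that followed the groups cannot be told apart from them.

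The fetal liver secretes alpha-fetoprotein, encoded by Afp next to the albumin gene, and in mice the zinc finger and homeobox proteins Zbtb20 and Zhx2 repress Afp after birth. Zhx2 is also known in mice as a repressor of Gpc3 and H19. Igf2 and H19 are neighbouring imprinted genes, expressed from opposite parental chromosomes, and the receptor encoded by the imprinted gene Igf2r takes IGF2 protein out of circulation. The Igf2bp genes encode RNA-binding proteins found mostly in fetal tissue, and LIN28B blocks the maturation of let-7 microRNAs.

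Values are log2 levels as the authors deposited them, and a change is sh Grb14 minus sh scramble on the log2 scale. A gene passed the test when its limma adjusted p (Benjamini-Hochberg over all 19938 genes) was under 0.05. Grb14, the targeted gene, had levels of 8.02 to 8.44 in sh Grb14 livers, against 10.08 to 10.25 in sh scramble livers. Its change was -1.91 (SE 0.0591, adjusted p = 7.99e-14), which leaves 26.7% of the sh scramble level, and a two-sided exact permutation test gave p = 0.00216, the smallest that 6 against 6 mice allow. The arrays differed widely between the groups: Pearson correlations over probe sets lay between 0.990 and 0.997 within a group and between 0.959 and 0.972 across groups. Over all genes tested the changes had a median of -0.10 and a median size of 0.23.

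Of the 8 measured oncofetal genes, 5 were higher in sh Grb14 livers (62.5%), 1 was lower (12.5%) and 2 did not pass the test. Over all genes the same test called 25.8% higher and 39.5% lower. The 5 genes, Afp, Gpc3, Igf2, Igf2r and Igf2bp3, were each at least 2-fold higher, as were 6.37% of all genes. In those 5 the lowest sh Grb14 liver lay above the highest sh scramble liver, which held for 20.3% of all genes. None of the 8 had groups that lay apart in the other direction, against 20.8% of all genes. The median change of the 8 genes was 1.33. Since the genes were picked with results of these arrays in view, these shares are a description. The 5 include Afp and Gpc3, which were already known as large rises in these arrays.

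**Figure D1:**
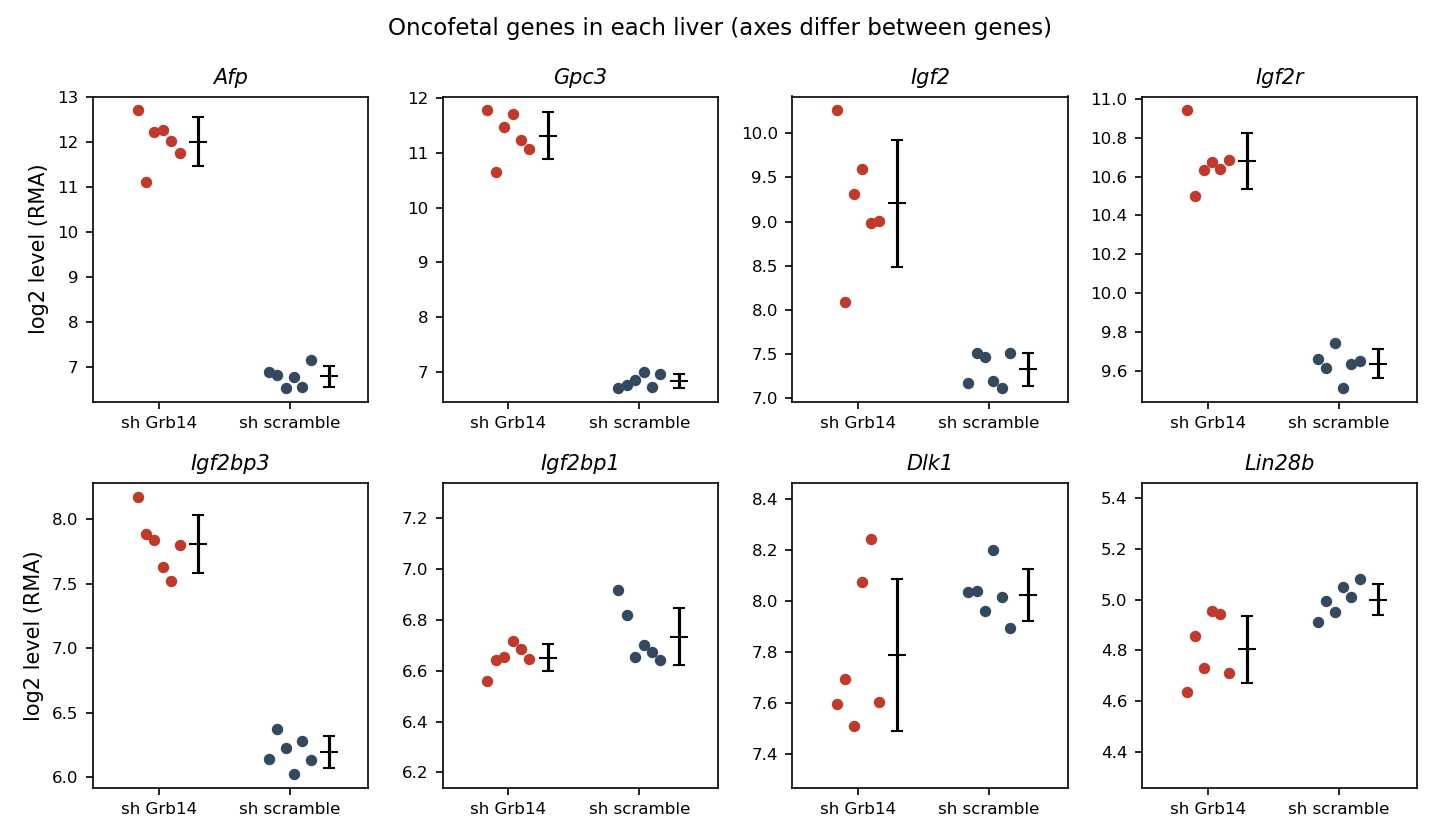
Level of each measured oncofetal gene in every liver, as log2 values on the vertical axis, with 6 sh Grb14 livers (red) left of 6 sh scramble livers (blue). Points are mice and black bars are the group mean with its SD; each panel has its own axis, and in Afp, Gpc3, Igf2, Igf2r and Igf2bp3 the groups do not overlap.

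Afp stood at 11.10 in the lowest, 12.11 in the median and 12.70 in the highest of the sh Grb14 livers, against 6.55, 6.81 and 7.16 in the sh scramble livers. No liver of either group came near the other group. The means were 12.0045 ± 0.54 in sh Grb14 livers and 6.80 ± 0.23 in sh scramble livers (SD, n = 6 each), a change of 5.21 (SE 0.193, 95% interval 4.80 to 5.62) or 36.9-fold. Afp had rank 2 of all 19938 genes, counted from the highest change. The sh scramble means of Afp and Gpc3 lay under the median level of every array (7.06 to 7.17), and a fold can be understated toward the low end. As Afp and Gpc3 were already among the largest rises in an earlier account of the arrays, their values are a description with no test.

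Afp and Alb, the albumin gene, are adjacent, with 0 genes between them in the RefSeq annotation of GRCm38.p6. Alb is the adult counterpart of Afp, and it averaged 13.95 ± 0.037 in sh Grb14 livers and 13.92 ± 0.024 in sh scramble livers, a change of 0.04 (SE 0.0252, adjusted p = 0.215). Alb lies close to the top of the scale, where a change can be understated. Afm, which encodes the related plasma protein afamin, was lower, at 9.27 ± 0.21 in sh Grb14 livers and 10.36 ± 0.076 in sh scramble livers (change -1.09, SE 0.0797, adjusted p = 3.12e-09). The 2 measured neighbours in this gene cluster did not move as Afp did, though a change of Alb could be understated. Gc, also of this cluster, was not measured.

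The promoters of Afp and Alb are shown because this pair of neighbours differed so widely in change. Both windows run from 250 bases before to 50 bases after the RefSeq start site (GRCm38.p6), on the plus strand. Capitals mark GTTAAT, a core of sites for the hepatocyte factor HNF1, and TATAAA, the TATA box. The Afp window lies at chr5:90490464-90490763 and the Alb window at chr5:90460620-90460919.
Afp: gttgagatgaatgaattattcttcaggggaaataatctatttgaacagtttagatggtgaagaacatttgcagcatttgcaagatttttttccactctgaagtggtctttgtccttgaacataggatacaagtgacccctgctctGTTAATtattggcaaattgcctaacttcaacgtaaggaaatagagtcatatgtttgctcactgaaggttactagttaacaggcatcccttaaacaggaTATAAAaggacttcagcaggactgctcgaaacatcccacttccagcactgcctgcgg
Alb: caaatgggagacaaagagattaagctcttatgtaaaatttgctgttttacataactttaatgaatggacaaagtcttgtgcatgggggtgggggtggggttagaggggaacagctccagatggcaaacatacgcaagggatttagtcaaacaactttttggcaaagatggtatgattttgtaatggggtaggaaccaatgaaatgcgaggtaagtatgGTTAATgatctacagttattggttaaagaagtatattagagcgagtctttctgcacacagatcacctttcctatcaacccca
The search covered both strands, and the motifs found do not overlap. GTTAAT began 105 bases before the start in Afp and 32 bases before it in Alb. It occurs in 7.1% of 32851 RefSeq promoter windows of 300 bases, and TATAAA, found 7 bases before the annotated start of Afp, occurs in 13.6%. A match of letters does not show that a factor was bound.

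Of 4 listed known postnatal repressors of Afp, 3 were measured and Trp53 was not. All 3 were lower in sh Grb14 livers, as were 39.5% of all genes. Zbtb20 averaged 10.82 ± 0.12 in sh Grb14 livers and 11.77 ± 0.13 in sh scramble livers, a change of -0.95 (SE 0.0613, adjusted p = 6.18e-10). Zhx2 averaged 8.71 ± 0.13 in sh Grb14 livers and 9.28 ± 0.11 in sh scramble livers, a change of -0.57 (SE 0.0641, adjusted p = 6.80e-07). Zfhx3, which encodes the homeodomain protein ATBF1, changed by -0.31 (SE 0.0555, adjusted p = 1.11e-04). The groups lay apart in all 3, and 20.8% of all genes lay apart in this direction. The median change of the list was -0.57, beside -0.10 for all genes.

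Factors known to activate Afp were mostly lower too: of 8 measured, 6 were lower, 1 was higher and 1 did not pass. Cebpa, a factor of mature hepatocytes, had the largest change among them, at 9.94 ± 0.10 in sh Grb14 livers and 11.66 ± 0.11 in sh scramble livers (-1.71, SE 0.0550, adjusted p = 1.23e-13). The pioneer factors Foxa1 and Foxa2 changed by -1.07 (SE 0.0908, adjusted p = 1.94e-08) and -0.75 (SE 0.128, adjusted p = 7.80e-05), and the nuclear receptor gene Nr5a2 by -0.62 (SE 0.0613, adjusted p = 1.35e-07). The list's median change was -0.50, and 39.5% of all genes were lower. Afp was thus far higher in livers in which most measured activators and all measured repressors were lower. The part of these factors in the rise of Afp was not tested.

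Gpc3 encodes glypican-3, a heparan sulfate proteoglycan of the cell surface that serves as a tissue marker of hepatocellular carcinoma. Its levels were 10.65, 11.35 and 11.78 (lowest, median, highest) in sh Grb14 livers, against 6.71, 6.81 and 6.99 in sh scramble livers. The gap between the groups was wider than the range within either. The means were 11.32 ± 0.42 in sh Grb14 livers and 6.83 ± 0.12 in sh scramble livers, a change of 4.49 (SE 0.147, 95% interval 4.18 to 4.80) or 22.4-fold, rank 8 of all genes from the top.

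Glypican genes other than Gpc3 had far smaller changes. Of 5 measured, 1 was higher, 2 were lower and 2 did not pass, with a median of -0.17. Over all genes 25.8% were higher and 39.5% lower. Gpc4 averaged 10.16 ± 0.087 in sh Grb14 livers and 11.10 ± 0.046 in sh scramble livers (-0.94, SE 0.0430, adjusted p = 8.02e-12). Gpc5 changed by -0.25 (SE 0.0592, adjusted p = 0.00158) and Gpc6 by 0.27 (SE 0.0548, adjusted p = 3.91e-04). Gpc1 had a change of 0.10 (SE 0.0686, adjusted p = 0.187) and Gpc2 of -0.17 (SE 0.112, adjusted p = 0.187).

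Igf2, the fetal growth factor, was at 8.09, 9.16 and 10.26 in the lowest, median and highest sh Grb14 liver, against 7.11, 7.33 and 7.51 in the sh scramble livers. It varied more among the sh Grb14 livers than any other of the 8 genes, and mouse 2, the lowest, still lay above every sh scramble liver. The means were 9.21 ± 0.72 in sh Grb14 livers and 7.32 ± 0.19 in sh scramble livers, a change of 1.88 (SE 0.245, 95% interval 1.37 to 2.40, adjusted p = 3.95e-06) or 3.69-fold.

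H19, the imprinted neighbour of Igf2, had no probe set of its own, but the microRNA gene Mir675 lies inside H19 in the RefSeq annotation. A probe set annotated to both Mir675 and Supt6, which is on another chromosome, was at 11.11 to 11.97 in sh Grb14 livers and 7.34 to 8.31 in sh scramble livers. Its means were 11.62 ± 0.29 in sh Grb14 livers and 7.63 ± 0.35 in sh scramble livers, and in a fit over all probe sets its change was 3.99 (SE 0.162, adjusted p = 8.81e-11) or 15.9-fold. Supt6, a transcription elongation factor gene, had a probe set of its own whose change was 0.15 (SE 0.0473, adjusted p = 0.0166 in the same fit). Which transcript the shared probe set read cannot be told from these files, and it is not counted as H19. It was chosen after its values were seen.

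The mature microRNAs of Mir675 are shown because that probe set had so large a change, though an array of total RNA with long-transcript labelling does not measure mature microRNAs. Both lie on the minus strand, miR-675-5p at chr7:142577112-142577133 and miR-675-3p at chr7:142577078-142577099 (RefSeq, GRCm38.p6). Capitals mark the seed, bases 2 to 8.
miR-675-5p: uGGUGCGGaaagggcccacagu
miR-675-3p: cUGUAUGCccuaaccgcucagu
No protein-coding gene lies between H19 and Igf2 in the annotation. On either side of the pair, Ins2, an insulin gene, changed by -0.30 (SE 0.0980, adjusted p = 0.0187). The 2 probe sets of Mrpl23, a mitochondrial ribosomal protein gene, had changes of -0.12 (SE 0.0593, adjusted p = 0.112) and -0.10 (SE 0.0576, adjusted p = 0.140). Further off, Tnnt3, a muscle troponin gene, had a change of -0.62 (SE 0.397, adjusted p = 0.202), and Lsp1, which encodes a leukocyte protein, was higher by 2.41 (SE 0.0655, adjusted p = 2.59e-12). These neighbours were looked at after the values of Igf2 were known, and their p-values come from the fit over all probe sets.

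Igf2r encodes the receptor that binds IGF2 and also carries lysosomal enzymes by their mannose 6-phosphate tags, and adult tissues express it too. It was at 10.50, 10.66 and 10.94 in sh Grb14 livers, against 9.51, 9.64 and 9.74 in sh scramble livers. The spread within each group was small, and the groups lay well apart. The means were 10.68 ± 0.14 in sh Grb14 livers and 9.64 ± 0.074 in sh scramble livers, a change of 1.04 (SE 0.0607, 95% interval 0.92 to 1.17, adjusted p = 1.58e-10) or 2.06-fold. Airn, the non-coding RNA that overlaps Igf2r and in mice silences its paternal copy, was also higher, at 9.11 ± 0.22 in sh Grb14 livers and 7.36 ± 0.31 in sh scramble livers (1.75, SE 0.129, adjusted p = 3.28e-09). Whether the labelling and probes tell the overlapping strands apart was not tested, so the signals of the 2 transcripts may not be separate.

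The other genes of the mannose 6-phosphate pathway did not move together. Of 10 measured, 3 were higher, 4 were lower and 3 did not pass, with a median of -0.02. These shares were close to those over all genes (25.8% higher and 39.5% lower). Gnptab, a subunit gene of the enzyme that begins the tag, was at 10.11 ± 0.059 in sh Grb14 livers and 9.24 ± 0.075 in sh scramble livers (0.87, SE 0.0448, adjusted p = 3.48e-11), while Gnptg, another subunit gene, changed by -0.62 (SE 0.0409, adjusted p = 8.17e-10). Sort1, the sorting receptor sortilin, changed by 0.44 (SE 0.0668, adjusted p = 2.30e-05), and the adaptor gene Gga2 by -0.23 (SE 0.0488, adjusted p = 7.70e-04).

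Most other genes for IGF ligands, receptors and binding proteins were lower: of 14 measured, 9 were lower, 4 were higher and 1 did not pass. Their median change was -0.39, and over all genes 39.5% were lower and 25.8% higher. Igfbp2, a binding protein, averaged 8.17 ± 0.28 in sh Grb14 livers and 10.70 ± 0.29 in sh scramble livers (-2.53, SE 0.134, adjusted p = 5.10e-11). Igfals, the subunit that holds IGFs in the circulating complex, changed by -1.91 (SE 0.0799, adjusted p = 2.71e-12), and Insr, the insulin receptor, by -1.09 (SE 0.0407, adjusted p = 7.16e-13). Igfbp1, a binding protein gene that insulin represses, was the largest rise of the list, at 11.09 ± 0.30 in sh Grb14 livers and 9.38 ± 0.64 in sh scramble livers (1.71, SE 0.232, adjusted p = 6.58e-06). The fetal ligand and its clearance receptor were thus higher in livers in which most of the other measured IGF genes were lower.

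Of 21 other measured imprinted genes, 11 were higher, 4 were lower and 6 did not pass, with a median of 0.27. Over all genes 25.8% were higher and 39.5% lower. Besides Airn, Peg10, a gene derived from a retrotransposon, averaged 9.55 ± 0.25 in sh Grb14 livers and 7.98 ± 0.18 in sh scramble livers (1.57, SE 0.106, adjusted p = 1.09e-09). Mest, a gene expressed from the paternal copy in mesoderm and fetal tissue, changed by 1.504 (SE 0.130, adjusted p = 2.43e-08) and Impact, a regulator of translation, by 0.77 (SE 0.0490, adjusted p = 4.92e-10). Imprinted genes as a group were therefore not uniformly higher.

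Igf2bp3 encodes an RNA-binding protein of fetal tissues and tumours. It stood at 7.52, 7.82 and 8.17 in sh Grb14 livers, against 6.02, 6.18 and 6.37 in sh scramble livers. The 2 groups again lay well apart. The means were 7.81 ± 0.23 in sh Grb14 livers and 6.20 ± 0.12 in sh scramble livers, a change of 1.61 (SE 0.0944, 95% interval 1.41 to 1.81, adjusted p = 1.70e-10) or 3.06-fold. The paralogue Igf2bp1 was measured by a pair of probe sets. The brighter was at 6.56, 6.65 and 6.72 in sh Grb14 livers and at 6.64, 6.69 and 6.92 in sh scramble livers, with a change of -0.08 (SE 0.0602, 95% interval -0.21 to 0.04, adjusted p = 0.232). The dimmer averaged 4.82 ± 0.14 in sh Grb14 livers and 4.79 ± 0.058 in sh scramble livers (0.03, SE 0.0648, adjusted p = 0.723 in the fit over all probe sets). The groups overlapped in both probe sets. The sh scramble mean of Igf2bp3 lay under the median level of every array (7.06 to 7.17), as did the means of both Igf2bp1 probe sets. With arrays centred on the median of named genes, which shifts all changes downward, the brighter had a change of -0.23 (adjusted p = 0.00241).

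The promoters of Igf2bp3 and Igf2r are shown because each held the E box CACGTG more than once. The windows are on the minus strand, at chr6:49214905-49215204 for Igf2bp3 and chr17:12769657-12769956 for Igf2r (RefSeq, GRCm38.p6), with CACGTG in capitals.
Igf2bp3: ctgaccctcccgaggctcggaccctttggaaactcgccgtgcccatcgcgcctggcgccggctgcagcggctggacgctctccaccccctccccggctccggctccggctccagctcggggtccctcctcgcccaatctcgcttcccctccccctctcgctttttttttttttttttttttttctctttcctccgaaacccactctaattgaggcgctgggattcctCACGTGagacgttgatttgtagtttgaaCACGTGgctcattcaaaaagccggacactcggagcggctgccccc
Igf2r: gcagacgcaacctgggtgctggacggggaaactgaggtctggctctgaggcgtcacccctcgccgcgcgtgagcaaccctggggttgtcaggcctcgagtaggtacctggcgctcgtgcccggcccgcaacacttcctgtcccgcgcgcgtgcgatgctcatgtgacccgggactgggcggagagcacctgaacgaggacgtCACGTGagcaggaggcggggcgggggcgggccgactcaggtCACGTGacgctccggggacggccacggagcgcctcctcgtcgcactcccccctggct
CACGTG reads the same on both strands, so each place is counted once. It began 23 bases before and 6 bases after the start in Igf2bp3, and 48 and 7 bases before it in Igf2r. The Lin28b window also held it, 49 bases before the start, and 7.15% of all windows hold it at least once. The share of windows that hold it more than once was not counted, so how common that is cannot be said. A window was given for 8 of the 10 listed genes, in 11 windows, and those of Gpc3, Igf2, Dlk1 and Igf2bp2 held none of the 3 motifs searched.

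Lin28b, the inhibitor of let-7 maturation, was the gene of the 8 that passed the test in the lower direction. It was at 4.64, 4.79 and 4.95 in sh Grb14 livers, against 4.91, 5.003 and 5.08 in sh scramble livers. The groups overlapped, and both lay under the lowest quartile of every array (5.69 to 5.83), where no detection call was made. The means were 4.80 ± 0.13 in sh Grb14 livers and 5.0001 ± 0.062 in sh scramble livers, a change of -0.20 (SE 0.0606, 95% interval -0.32 to -0.07, adjusted p = 0.0105) or 1.15-fold lower. For all genes tested the median was -0.10.

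Among 16 other genes of the LIN28 and let-7 pathway, 8 were higher, 3 were lower and 5 did not pass. Their median change was 0.17, and the shares over all genes were 25.8% higher and 39.5% lower. Cdc25a, a cell cycle phosphatase gene and let-7 target, averaged 9.25 ± 0.21 in sh Grb14 livers and 7.72 ± 0.13 in sh scramble livers (1.53, SE 0.0889, adjusted p = 1.61e-10). Tut4, a terminal uridylyl transferase that acts with LIN28 on let-7 precursors, changed by 1.44 (SE 0.0584, adjusted p = 1.96e-12), and Ccnd1, cyclin D1, by 1.37 (SE 0.114, adjusted p = 1.61e-08). Myc changed by 1.17 (SE 0.298, adjusted p = 0.00275) and ranged from 7.95 to 10.37 among sh scramble livers, so its groups overlapped. Lin28a, the paralogue of Lin28b, changed by -0.37 (SE 0.0767, adjusted p = 5.86e-04).

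Probe sets of 10 let-7 family precursors gave 0 higher and 6 lower, beside 25.8% and 39.5% of all genes. The other 4 did not pass, and the median was -0.20. These counts depend on the setting: 10 of 10 were lower with arrays centred on the median of named genes, and 2 of 4 were lower with dim genes left out, since 6 of the probe sets, that of Mirlet7c-1 among them, had a mean level under the limit of 5.75. The largest changes were those of Mirlet7e (-0.40, SE 0.0728, adjusted p = 1.54e-04) and Mirlet7c-1 (-0.39, SE 0.0587, adjusted p = 2.15e-05). Mirlet7e averaged 6.82 ± 0.13 in sh Grb14 livers and 7.22 ± 0.12 in sh scramble livers, and Mirlet7c-1 averaged 4.06 ± 0.10 in sh Grb14 livers and 4.45 ± 0.11 in sh scramble livers. Mirlet7f-1 changed by -0.25 (SE 0.0852, adjusted p = 0.0163) and Mirlet7g by -0.23 (SE 0.0969, adjusted p = 0.0490). The mature sequences of the leading pair are let-7e-5p at chr17:17830366-17830387 and let-7c-5p at chr16:77599672-77599693 (RefSeq, GRCm38.p6), both on the plus strand, with the seed in capitals.
let-7e-5p: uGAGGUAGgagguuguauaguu
let-7c-5p: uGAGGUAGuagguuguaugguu
The seed GAGGUAG is shared by 9 mature let-7 and miR-98 5p sequences from 11 genes in the RefSeq table. These probe sets read precursors or host transcripts, so mature let-7 was not measured, and Mirlet7c-2 encodes the same let-7c-5p.

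Dlk1 encodes a membrane protein related to the Notch ligands that marks hepatoblasts. It was at 7.51, 7.65 and 8.24 in sh Grb14 livers, against 7.89, 8.03 and 8.20 in sh scramble livers. In sh Grb14 mice 4 and 5 the level was as high as in sh scramble livers, and in the other 4 it was below all of them. The means were 7.79 ± 0.30 in sh Grb14 livers and 8.02 ± 0.10 in sh scramble livers, a change of -0.24 (SE 0.110, 95% interval -0.47 to -0.004, adjusted p = 0.0680), which did not pass. This call depends on the scaling and on single mice: the adjusted p was 0.0421 with arrays centred on their medians, 0.0206 after quantile normalisation, 0.0249 without sh Grb14 mouse 4 and 0.00493 without sh Grb14 mouse 5. Its change stayed between -0.39 and -0.18 over all 19 alternatives.

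Of 12 genes for Notch receptors, ligands and targets and the paralogue Dlk2, 5 were higher, 3 were lower and 4 did not pass. Over all genes 25.8% were higher and 39.5% lower. Notch1 averaged 10.73 ± 0.12 in sh Grb14 livers and 9.73 ± 0.13 in sh scramble livers (0.996, SE 0.0635, adjusted p = 5.13e-10). The ligand gene Dll4 changed by -0.66 (SE 0.0667, adjusted p = 1.99e-07), and the target genes Hes1 and Hey1 by 0.59 (SE 0.1004, adjusted p = 7.52e-05) and 0.43 (SE 0.0750, adjusted p = 1.03e-04). The imprinted neighbour of Dlk1, Meg3, had a change of -0.07 (SE 0.107, adjusted p = 0.563).

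**Figure D2:**
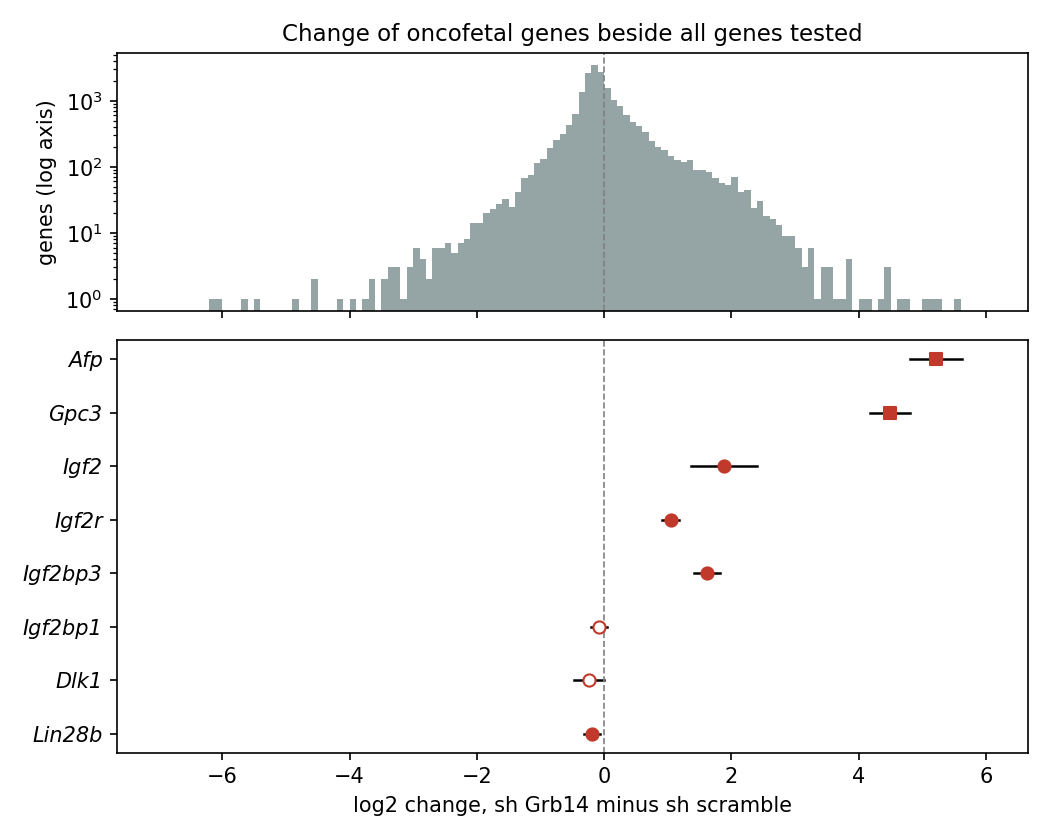
Upper panel, number of genes (log axis) in each bin of log2 change, sh Grb14 minus sh scramble, for all 19938 genes. Lower panel, the change of each oncofetal gene with its 95% interval; squares are Afp and Gpc3, given with no test, filled circles passed the test and open circles did not, and Afp and Gpc3 lie at the far right of the distribution above.

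A further 16 oncofetal or hepatoblast genes split: 7 were higher, 2 were lower and 7 did not pass, with a median of 0.14. Over all genes 25.8% were higher and 39.5% lower. Golm1, which encodes a Golgi protein raised in hepatocellular carcinoma, averaged 9.81 ± 0.20 in sh Grb14 livers and 7.25 ± 0.093 in sh scramble livers (2.56, SE 0.0813, adjusted p = 1.07e-13). Lpl, lipoprotein lipase, which newborn liver expresses in mice, changed by 2.50 (SE 0.134, adjusted p = 5.87e-11). Its mean was 11.85 ± 0.14 in sh Grb14 livers and 9.35 ± 0.38 in sh scramble livers. The sh scramble mean lay above the upper quartile of every array, so Lpl was not near the low end of the scale in those livers. The progenitor markers Cd24a and Prom1 changed by 2.15 each (SE 0.109 and 0.118, adjusted p = 2.65e-11 and 7.45e-11). Sall4, Sox9 and Krt19, also used as progenitor or oncofetal markers, had changes of -0.18 (adjusted p = 0.0846), 0.07 (adjusted p = 0.463) and -0.08 (adjusted p = 0.628). The rise was thus found in some of these genes and not in the list as a whole.

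**Figure D3:**
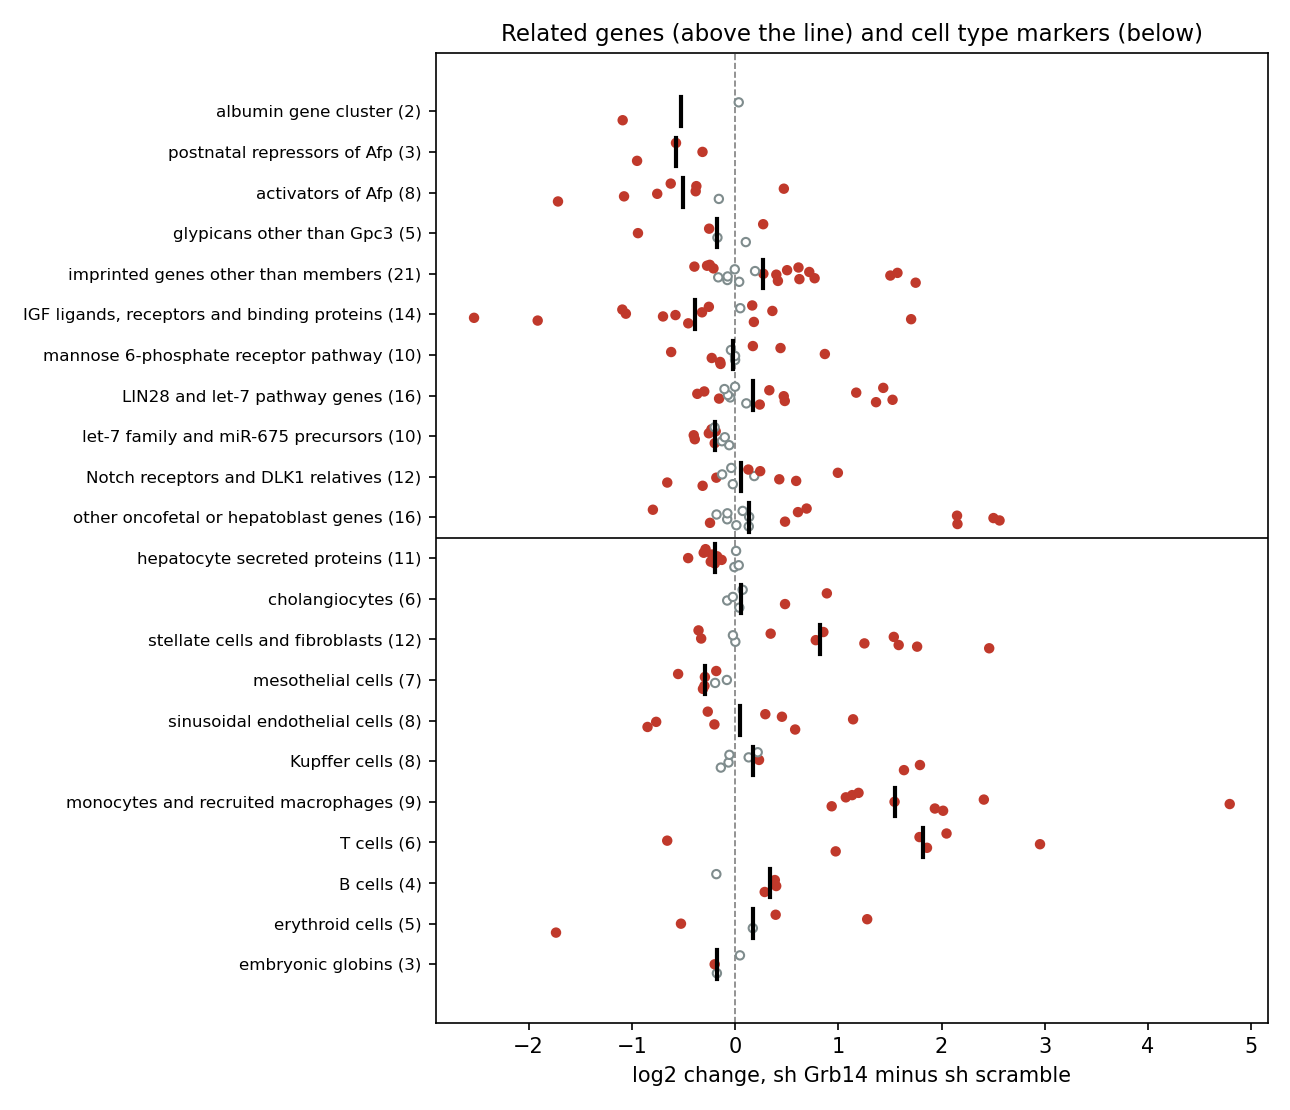
Log2 change, sh Grb14 minus sh scramble, of every measured gene of the related lists (above the line) and of the cell type marker lists (below it), with the number measured in brackets. Filled points passed the test, open points did not, and black bars are list medians, which are highest for T cells (1.82) and for monocytes and recruited macrophages (1.55).

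Whole liver holds many cell types, and in such samples a change in the number of cells of a type and a change in RNA per cell cannot be told apart. Markers of several cell types differed between the groups beside the oncofetal genes. For every marker list the reference is the share over all genes, of which 25.8% were higher and 39.5% lower. Of 11 genes for proteins secreted by hepatocytes, 8 were lower and 0 higher. The log2 of their summed level lay between 16.60 and 16.72 in sh Grb14 livers and between 16.79 and 16.88 in sh scramble livers. Most of these genes lie high on the scale, where a change can be understated. Of 9 monocyte and recruited macrophage markers, 9 were higher, and the log2 of their sum lay between 13.26 and 13.68 in sh Grb14 livers, against 11.72 to 12.05 in sh scramble livers. T cell markers were higher in 5 of 6 and lower in 1, Cd4 (-0.66, SE 0.0528, adjusted p = 1.03e-08), with log2 sums of 11.53 to 11.94 in sh Grb14 livers and 9.93 to 10.10 in sh scramble livers. B cell markers were higher in 3 of 4, with log2 sums of 8.92 to 9.24 in sh Grb14 livers and 8.59 to 8.96 in sh scramble livers. Most measured leukocyte markers of these 3 lists were therefore higher in the livers with higher Afp and Gpc3, and their part in those results was not tested.

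Stellate cell and fibroblast markers were higher in 8 of 12 and lower in 2, with log2 sums of 13.74 to 14.13 in sh Grb14 livers and 13.45 to 13.62 in sh scramble livers. Acta2, smooth muscle actin of activated stellate cells, changed by 2.46 (SE 0.111, adjusted p = 7.05e-12), while Reln and Lrat, markers of quiescent stellate cells, changed by -0.35 (SE 0.0979, adjusted p = 0.00509) and -0.33 (SE 0.107, adjusted p = 0.0138). Cholangiocyte markers were higher in 2 of 6, with log2 sums of 10.63 to 10.92 in sh Grb14 livers and 10.26 to 10.52 in sh scramble livers. The list's median change was 0.06, and 25.8% of all genes were higher. The 2 were Muc1 (0.89, SE 0.154, adjusted p = 9.08e-05) and Epcam (0.48, SE 0.0821, adjusted p = 7.50e-05), while Krt19, Krt7, Sox9 and Cftr did not pass. Kupffer cell markers were higher in 3 of 8 (13.41 to 13.70 in sh Grb14 livers, 12.16 to 12.61 in sh scramble livers), with a median change of 0.18. Their sums are carried by Cd5l (1.79, SE 0.0786, adjusted p = 4.88e-12) and Adgre1 (1.64, SE 0.0800, adjusted p = 1.83e-11), while Clec4f, Vsig4, Timd4, Marco and Cd163 did not pass. Endothelial markers were higher in 4 and lower in 4 of 8 (12.96 to 13.14 in sh Grb14 livers, 13.06 to 13.21 in sh scramble livers). Mesothelial markers were lower in 5 of 7 (9.52 to 9.92 in sh Grb14 livers, 9.88 to 10.08 in sh scramble livers), beside 39.5% of all genes. The part of these cells in the changes of the oncofetal genes was not tested.

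Fetal liver also makes blood, so erythroid genes were counted as well. Of 9 listed, 5 were measured: 2 were higher, 2 were lower and 1 did not pass, with a median change of 0.17. Over all genes 25.8% were higher and 39.5% lower. The log2 sums were 10.67 to 11.13 in sh Grb14 livers and 11.35 to 11.59 in sh scramble livers. The lower sums rest on Alas2 (-1.73, SE 0.0867, adjusted p = 2.44e-11), the brightest of the 5 in sh scramble livers. Klf1 was also lower (-0.52), while Slc4a1 (1.28, SE 0.101, adjusted p = 8.30e-09) and Tfrc (0.39) were higher. Of the embryonic globins, Hbb-y had a change of 0.05 (SE 0.0657, adjusted p = 0.528) and Hba-x of -0.18 (SE 0.0758, adjusted p = 0.0520), while Hbb-bh1 changed by -0.20 (SE 0.0692, adjusted p = 0.0206). The log2 of their summed level was 7.87 to 8.11 in sh Grb14 livers and 8.02 to 8.26 in sh scramble livers. No embryonic globin was higher beside Afp. The log2 scale of these arrays has no zero, so no marker can be called absent.

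The oncofetal genes differed among themselves in how they varied from mouse to mouse. Within the 6 sh Grb14 livers, Afp and Gpc3 put the mice in the same order, 1, 4, 3, 5, 6 and 2 from high to low. Pearson's r between them was 0.970 (two-sided exact permutation p = 0.00139, the smallest that 6 livers allow; adjusted over 7 relations, p = 0.00972) and Spearman's rho was 1 (exact p = 0.00278, adjusted p = 0.0194). Without the 2 livers farthest from the median of Afp, r was 0.951. With arrays centred on their medians, an alternative added after the data were seen, the 2 orders were no longer identical: rho was 0.943 (exact p = 0.0167, adjusted p = 0.117), which did not pass, while r was 0.971 (exact p = 0.00278, adjusted p = 0.0194). Igf2 had r = 0.976 with Afp (exact p = 0.00556, adjusted p = 0.0194), and r was 0.837 without the 2 farthest livers. Its rho of 0.943 (exact p = 0.0167, adjusted p = 0.0583) did not pass. With arrays centred, r was 0.977 (exact p = 0.00833, adjusted p = 0.0292) and rho was 0.886 (exact p = 0.0333, adjusted p = 0.117).

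Igf2r had r = 0.846 with Afp (exact p = 0.0583, adjusted p = 0.136) and rho = 0.6 (exact p = 0.242, adjusted p = 0.564), and r was -0.431 without the 2 farthest livers, so the relation rests on mice 1 and 2. Igf2bp3, which was higher in every sh Grb14 liver, had r = 0.239 with Afp (exact p = 0.664, adjusted p = 0.775) and rho = 0.143. Dlk1, Lin28b and Igf2bp1 had r of 0.017, -0.325 and -0.255 (adjusted exact permutation p of 0.775 or more). In the 6 sh scramble livers, r with Afp lay between -0.325 and 0.422 over the 7 genes, with an adjusted exact p of 0.749 for each. The difference in r between the groups was not tested.

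**Figure D4:**
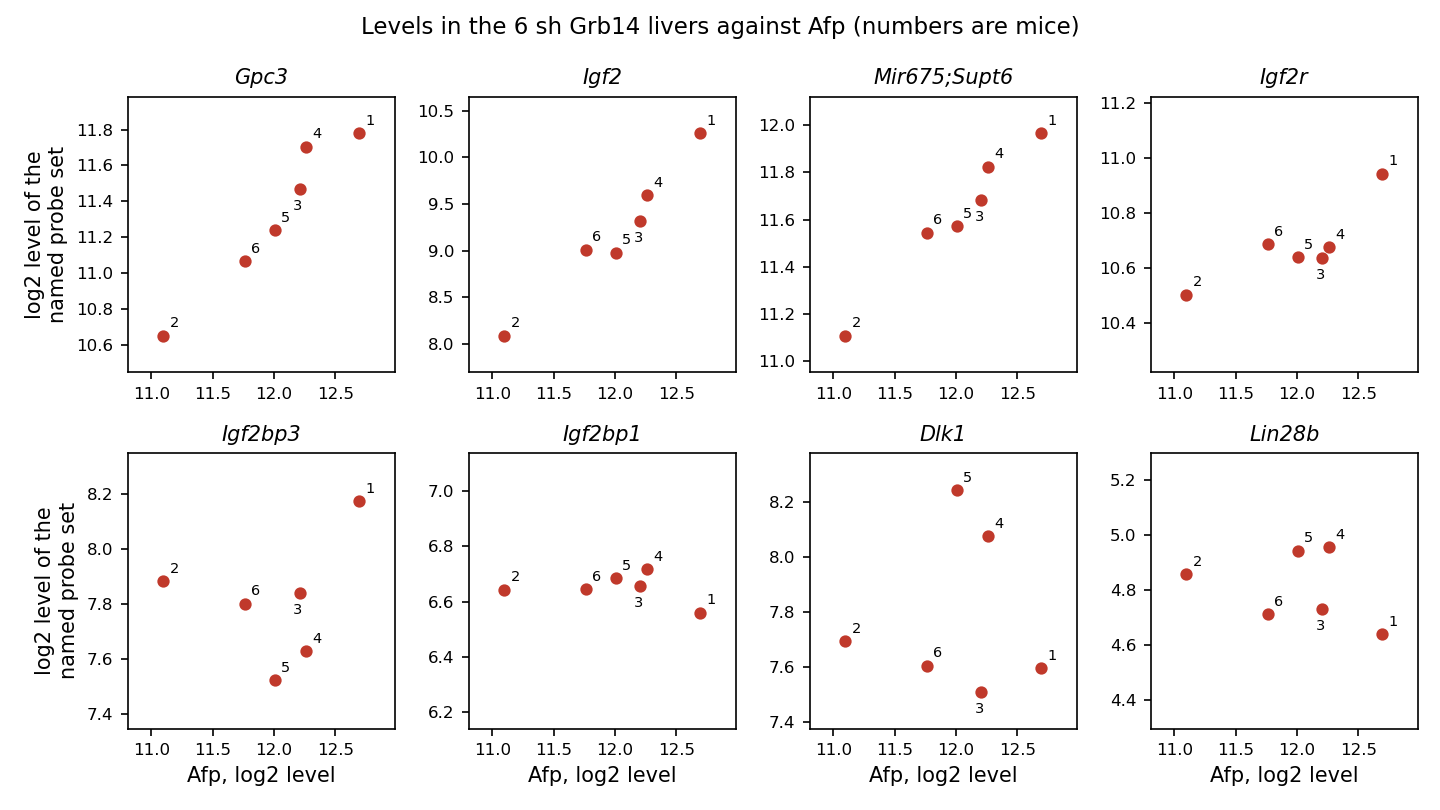
Level of each named probe set (vertical axis) against the level of Afp (horizontal axis) in the 6 sh Grb14 livers, both as log2 values, with mouse numbers beside the points. Gpc3, Igf2 and the probe set annotated to Mir675 and Supt6 climb with Afp, while Igf2bp3, Igf2bp1, Dlk1 and Lin28b have no such order.

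Other measures were set against Afp in the same 6 livers, 17 relations chosen after the data were seen. The probe set annotated to Mir675 and Supt6 had r = 0.985 (exact p = 0.00139, adjusted p = 0.0236) and rho = 1 (exact p = 0.00278, adjusted p = 0.0472), with r = 0.872 without the 2 farthest livers. The mean of the stellate cell and fibroblast markers had r = 0.939 (exact p = 0.00556, adjusted p = 0.0472) and rho = 0.829 (exact p = 0.0583, adjusted p = 0.331), with r = 0.996 without those livers. Grb14 had r = -0.725 (exact p = 0.0889, adjusted p = 0.378) and rho = -0.886 (exact p = 0.0333, adjusted p = 0.283), so no relation of Afp with the remaining Grb14 passed. Zbtb20 had r = -0.362 and Zhx2 r = -0.240 (adjusted exact p = 0.784 for each), and the array medians had r = 0.262 (adjusted exact p = 0.784). The other marker lists had adjusted exact p of 0.378 or more.

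The genes outside the list whose level followed that of Afp most closely were found by Pearson's r over deviations from the group means in all 12 arrays, among 9964 genes with a mean level above the median. The highest were Ecm1 (r = 0.918), Sptbn1 (0.915), Rbms3 (0.914), Itga3 (0.902) and Reln (0.892), beside 0.904 for Igf2 and 0.899 for Gpc3. Ecm1, an extracellular matrix protein gene, averaged 9.62 in sh Grb14 livers and 10.63 in sh scramble livers, a change of -1.01 (SE 0.0760, adjusted p = 4.43e-09). Sptbn1, a spectrin gene, and Itga3, an integrin gene, changed by 0.49 (SE 0.0470, adjusted p = 8.79e-08) and 0.33 (SE 0.0700, adjusted p = 5.85e-04), and Rbms3, an RNA-binding protein gene, by -0.14 (SE 0.0553, adjusted p = 0.0401). Genes with a like spread among mice thus moved in either direction between the groups. All these values come from the same arrays, so array-wide differences are shared by both genes of a pair.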

How the data were processed

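Liver RNA of 12 mice was measured on 12 arrays. Per the labels' protocols, 100 ng of Trizol-extracted total RNA was labelled with biotin. The authors deposited log2 expression values for 35556 probe sets, between 2.74 and 14.2, and per the submitters' processing notes RMA (background correction, normalisation and summary of probes) and the software Partek were used, in versions not stated. Settings and genome build of the probes are not given in the sources used here.

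The platform annotation gave 1 symbol to 21789 probe sets, several to 1621 and none listed to 12146. Where a gene had more than 1 probe set (999 genes), the probe set of highest mean level was kept. The 19938 genes were fitted with limma 3.58.1 in R 4.3.3 (lmFit, eBayes with trend) on all 12 arrays, with no covariate and no filter, after the script was tested on simulated data. Correlations within a group used exact permutation tests over all orders of 6 livers. No 2 arrays were identical. The 6 arrays per group limit the precision, and values near either end of the scale can understate a change. The shift of the median gene, -0.10 as deposited, was -0.11 with arrays centred on their medians, -0.10 after quantile normalisation and -0.25 with arrays centred on the median of named genes.

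The genes, the 11 related lists (117 of 130 genes measured) and the 11 marker lists (79 of 89) were chosen with earlier results of these data known. Named from each related list were every measured gene where it held 5 or fewer, and otherwise up to 4 with the largest change among those past the test; a few other list members are named as examples. RefSeq tables of GRCm38.p6 gave names, neighbours, promoters and microRNAs.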

Additional observations from a re-analysis of the deposited data

Results flagged for a closer look

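Outliers were looked for in 20 sets of 6 livers (each oncofetal gene, Grb14 and the probe set annotated to Mir675 and Supt6, in each group), where chance marks about 1 in 20. The level of the probe set annotated to Mir675 and Supt6 in sh scramble mouse 6, 8.315, stood apart from the other 5 sh scramble livers, by a gap of 0.728 of the range over all 6, against a limit of 0.625. The highest sh scramble value of Afp, 7.16, was in the same mouse, and at 0.430 of the range it was under that limit. The change of this probe set, 3.99, comes from data outside the comparison of genes with a symbol of their own.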

How the results depend on the processing

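Each gene was recomputed under up to 19 alternatives. Igf2, Igf2r and Igf2bp3 kept direction and call in 57 of 57 settings, with changes of 1.67 to 2.11, 0.90 to 1.08 and 1.47 to 1.67. Afp and Gpc3, described with no test, had changes of 5.06 to 5.39 and 4.34 to 4.62. The count of lower genes, 1 as reported, was 0 at adjusted p under 0.01, 0 with at least 1.5-fold and 0 with dim genes left out (Lin28b is then not tested). It was 2 with arrays centred on their medians, 2 after quantile normalisation and 3 with arrays centred on the median of named genes, an alternative added after the data were seen. Leaving out each replicate in turn gave 1 to 2. The additional genes were Dlk1 (changes of -0.25, -0.32 and -0.39 under these scalings) and, under the last, Igf2bp1 (-0.23, adjusted p = 0.00241 in limma). Lin28b stayed lower in 18 settings (adjusted p of 1.38e-04 to 0.0293). Genes of the related lists past the test numbered 36 with at least 1.5-fold, out of 83 as reported. Of 418 list counts, 404 were within 1.5 times, and 9 of the other 14 came with centring on the median of named genes, which moves every change downward by the same amount: all 10 let-7 precursors were then lower and 0 glypicans higher. With dim genes left out, 2 of 4 let-7 precursors were lower. The rank correlation of Afp with Gpc3 no longer passed with arrays centred (rho 0.943, adjusted p = 0.117 by exact permutation). The correlation of Afp with Dlk1 was -0.088 with arrays centred, the reverse sign of 0.017, and the cause was not tested. No paired analysis was possible because the replicate numbers were given in accession order.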
